A study of Mus musculus with 16 samples.

Results

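The genes described here are 10 genes of the Notch pathway measured in C2C12 cells, a mouse skeletal myoblast line whose cells fuse into myotubes when serum is lowered. They are the receptors Notch1, Notch2 and Notch3, the ligands Jag1, Jag2 and Dll1, the target genes Hes1, Hey1 and Heyl, and Rbpj, which encodes the DNA-binding protein of the pathway. The 10 genes were taken by name from the 49585 genes of the RNA-seq count tables, with earlier results of these data known. In Notch signalling a ligand on one cell pulls on a receptor of a neighbouring cell, the receptor is cut, and its inner part enters the nucleus and turns RBPJ from a repressor into an activator of HES and HEY genes. HES and HEY proteins are repressors, and in skeletal muscle Notch signalling is known for holding back myogenic differentiation and for keeping muscle stem cells.

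The study compared 16 libraries in 2 count tables. The first table held WT and AMPK-KO C2C12 cells at day 0 (d0, in growth medium with 10% fetal bovine serum) and at day 8 (d8) of differentiation in 2% equine serum, with 2 libraries per group. In AMPK-KO cells both catalytic subunit genes of AMP-activated protein kinase, Prkaa1 and Prkaa2, were targeted with CRISPR/Cas9. The second table held AMPK-/- C2C12 cells at d0 that carried a FLAGBirA-tagged TET2 knocked in at the endogenous Tet2 locus, either as wild type (TET2-WT) or with glutamate in place of a serine (TET2-S97E), a substitution made to mimic phosphorylation of this DNA demethylation enzyme. Each of these genotypes had 2 clones and each clone had 2 libraries, so all libraries of the second table lacked AMPK, the controls included. The study states that independent AMPK-KO lines were used for its sequencing tracks at the Pax7 locus. The labels do not say which line a library came from or whether the 2 replicates of a group were separate cultures, so p-values measure the spread between these libraries, which may be technical. Libraries held between 17883417 and 24663079 counted reads in the first table and between 19801909 and 37790358 in the second, where every replicate 1 library was shallower than every replicate 2 library.

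Values are CPM (the counts of a gene relative to the size of its library, with library sizes scaled by TMM within a table), and levels are compared between the tables only as a side-by-side listing. A gene was called changed where its Benjamini-Hochberg adjusted p over all tested genes, from edgeR's quasi-likelihood test, was under 0.05. Prkaa1 had 158.5 and 158.6 CPM in the WT d0 libraries and 79.7 and 78.0 CPM in the AMPK-KO d0 libraries. At d8 Prkaa1 had 126 and 125 CPM in WT and 83.3 and 82.5 CPM in AMPK-KO libraries, so reads on the targeted gene were lower in each AMPK-KO library but did not vanish. Prkaa2 had 1.69 and 1.79 CPM in WT d0, 0.209 and 0.421 CPM in AMPK-KO d0, 6.22 and 10.1 CPM in WT d8 and 1.26 and 0.826 CPM in AMPK-KO d8 libraries. Tet2 had between 22.6 and 58.4 CPM in TET2-WT libraries and between 7.89 and 22.1 CPM in TET2-S97E libraries, and the groups did not overlap (edgeR adjusted p = 0.0621).

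Notch1 was called between AMPK-KO and WT at d0 and between the TET2 genotypes. It lies on the minus strand of mm10 at chr2:26457903-26516663 and codes for a receptor. Its 250 bases before the RefSeq transcription start, chr2:26503823-26504072 in GRCm38.p6, are printed here because TET2 acts on cytosines followed by guanine (CpG), and each CpG is in capitals.
Notch1 promoter: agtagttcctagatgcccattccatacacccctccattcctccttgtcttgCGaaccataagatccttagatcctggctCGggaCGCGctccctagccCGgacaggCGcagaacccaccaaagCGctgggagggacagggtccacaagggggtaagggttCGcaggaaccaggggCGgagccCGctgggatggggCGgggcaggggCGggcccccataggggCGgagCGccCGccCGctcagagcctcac
This window lies inside the gene span given above, which begins at 26516663 on the minus strand, and the bases before that start were not examined. Windows of other members, such as those of Rbpj, also lay inside the gene span. The Notch1 window held 16 CpG, against a median of 6 over 32851 RefSeq promoter windows of 250 bases, and 74.6% of those windows held fewer. For the 7 members with a window in the RefSeq table, the number ran from 13 CpG in 1 of the 2 Dll1 windows to 54 in Jag2. The RBPJ recognition letters GTGGGAA, searched on both strands, were in no window of these 7 genes and in 5.42% of all promoter windows. The target genes Hes1, Hey1 and Heyl had no window and were not searched. The E-box letters CAGCTG, which read the same on both strands, were found 1 time in the Jag1 window and 1 time in a Dll1 window, and were in 13% of all windows. Methylation was not measured in these count tables.

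TPM here is counts per length of a gene's exons, merged over all its annotated transcripts and scaled to the same sum in each library. Which transcripts were expressed was not considered. By this measure Hes1 and Notch2 were the most abundant of the 10 genes in WT d0 cells, with 82.7 ± 26.6 and 82.3 ± 0.049 TPM (mean ± SD, n = 2). Notch3 followed with 59.9 ± 43.5 TPM, Jag2 with 36.0 ± 17.8 TPM and Hey1 with 24.4 ± 7.16 TPM. Notch1 was at 18.3 ± 6.49 TPM, Rbpj at 16.7 ± 2.64 TPM, Heyl at 12.3 ± 7.64 TPM, Jag1 at 6.75 ± 2.90 TPM and Dll1 at 3.83 ± 1.32 TPM. The ranges of neighbours in this order overlapped at every step. The WT d0 libraries stood apart from each other, with 64.5 CPM of Notch3 in replicate 1 and 212 CPM in replicate 2, so the ligand and target values that rest on them are also given with a library left out. Of the remaining receptors and ligands, Dll3 and Dll4 were at or under 0.344 and 0.185 CPM in each of the 16 libraries.

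**Figure D1:**
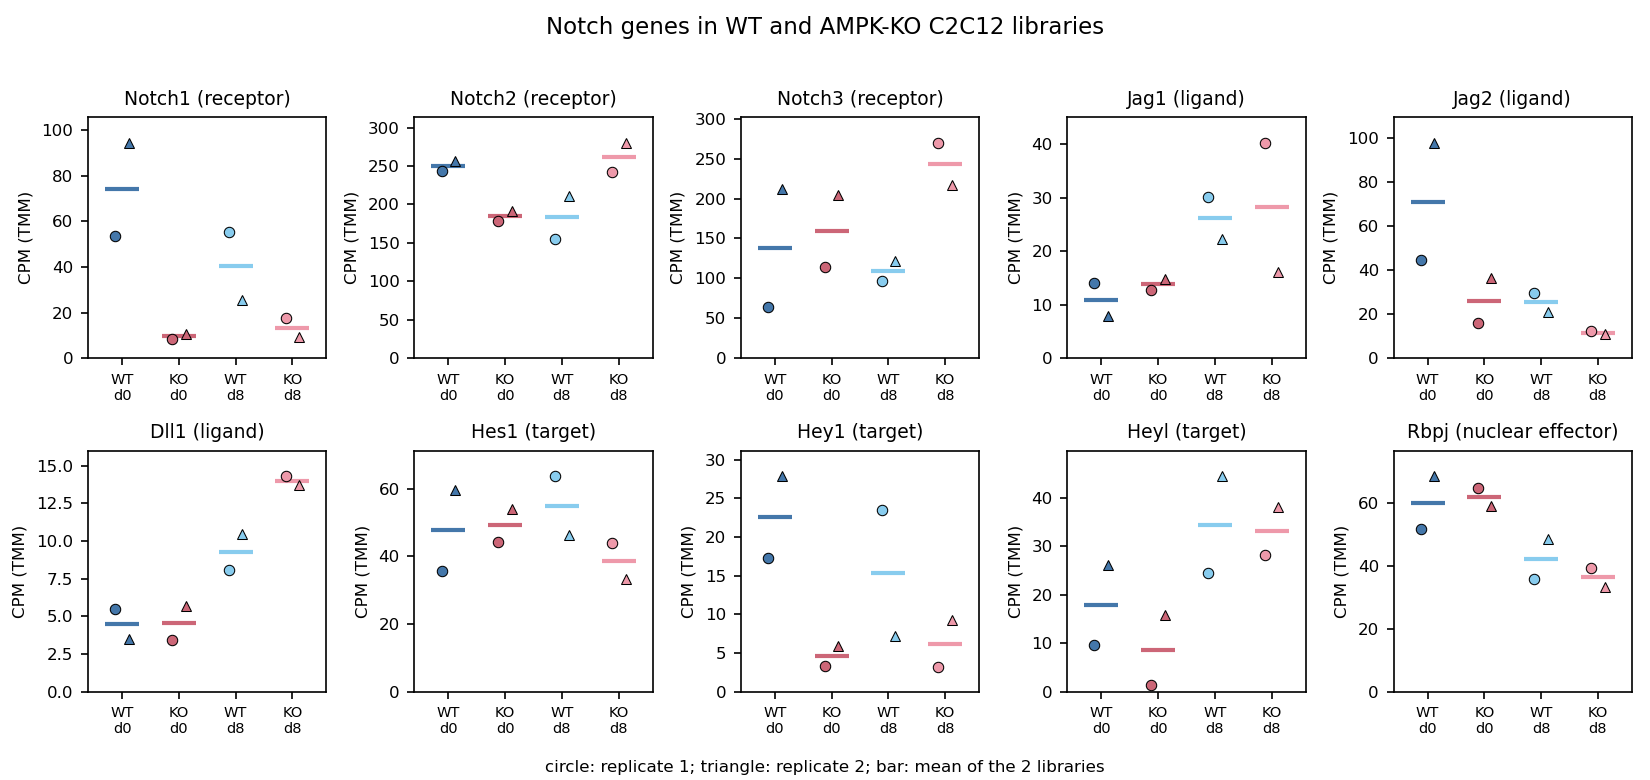
Each panel plots the CPM of 1 gene on a linear axis from 0 in the 8 WT and AMPK-KO libraries, with circles for replicate 1, triangles for replicate 2 and a bar for the mean of the 2 libraries. Notch1 lies at 53.6 and 94.3 CPM in WT d0 and at 8.58 and 10.8 CPM in AMPK-KO d0 libraries, while Hes1 and Rbpj overlap between genotypes at d0.

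The first comparison set AMPK-KO against WT cells at d0. AMPK-KO cells came from clones picked after editing, so at either day loss of AMPK and differences between clones cannot be told apart. Notch1 was lower in AMPK-KO than in WT d0 cells, and it was the 1 member of 10 that was called. The background was 3.52% of the 14329 genes tested, and 2.83% were called lower. Notch1 had 53.6 and 94.3 CPM in the WT d0 libraries and 8.58 and 10.8 CPM in the AMPK-KO d0 libraries. Both AMPK-KO libraries lay far below both WT libraries, a fall of 2.93 on the log2 scale (7.62-fold lower, SE 0.504, edgeR adjusted p = 0.029). In summed TPM of the 3 receptors, Notch1 made up 10.99% and 11.7% in WT d0 libraries and 1.92% and 1.73% in AMPK-KO d0 libraries. The call rested on 2 libraries a group. It was lost without WT d0 replicate 2 (adjusted p = 0.0731), without AMPK-KO d0 replicate 1 (0.205) and without AMPK-KO d0 replicate 2 (0.133).

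The other receptors were not called. Notch2 had 243 and 256 CPM in WT d0 and 179 and 192 CPM in AMPK-KO d0 libraries, without overlap and without a call (log2 fold change −0.43, SE 0.190, edgeR adjusted p = 0.257). Notch3, a receptor also known from vascular smooth muscle, had 115 and 205 CPM in AMPK-KO d0 libraries, inside the WT range of 64.5 to 212 CPM. In all, 4 of the 10 genes had groups without overlap at d0, each lower in AMPK-KO, beside 49.4% of all tested genes without overlap and 25.7% without overlap and lower, so this count is not a result about the Notch genes.

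Among ligands and targets at d0, Jag2 and Hey1 were also below WT in both AMPK-KO libraries. Jag2 had 44.6 and 97.7 CPM in WT and 15.9 and 36.3 CPM in AMPK-KO libraries (log2 fold change −1.45, SE 0.481, edgeR adjusted p = 0.153). Hey1, a repressor and direct Notch target, had 17.3 and 27.8 CPM in WT and 3.30 and 5.89 CPM in AMPK-KO libraries (log2 fold change −2.29, SE 0.717, adjusted p = 0.136). Neither was called by edgeR, while DESeq2 on the same counts called both, with adjusted p = 0.0305 for Jag2 and 0.00984 for Hey1. Without WT d0 replicate 1 the log2 difference was −1.91 for Jag2 and −2.60 for Hey1, and without WT d0 replicate 2 it was −0.77 for Jag2 and −1.91 for Hey1. Over all 8 fits without 1 library Jag2 ranged from −2.18 to −0.77. The other ligands overlapped between genotypes, and edgeR called neither. The log2 fold change was 0.33 for Jag1 and 0.01 for Dll1. In fits without 1 library Jag1 ranged from −0.015 to 0.80 and Dll1 from −0.41 to 0.36. Hes1, the most abundant target, overlapped between genotypes, with 35.6 and 59.7 CPM in WT and 44.3 and 54.0 CPM in AMPK-KO libraries. Its log2 fold change was 0.04 with a 95% interval from −0.65 to 0.74. Rbpj overlapped as well (51.7 and 68.3 CPM against 64.6 and 58.8 CPM), and its 95% interval ran from −0.46 to 0.55 on the log2 scale. Heyl could not be placed at d0, since its AMPK-KO libraries held 1.47 and 15.8 CPM and its WT libraries 9.65 and 26.1 CPM, and its log2 difference ranged from −3.62 to −0.16 in fits without 1 library. Over the 10 genes the median log2 difference was −0.21, and over all tested genes it was −0.00102.

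At d8, after differentiation, none of the 10 genes was called by edgeR between AMPK-KO and WT cells. The background was 5.35% of 14329 genes, 2 members had an unadjusted p under 0.05, and DESeq2 called 1 member, Notch1. Notch1 had 55.3 and 25.4 CPM in WT d8 and 17.5 and 9.13 CPM in AMPK-KO d8 libraries, again without overlap. The difference was −1.59 on the log2 scale (SE 0.481, edgeR adjusted p = 0.108, DESeq2 adjusted p = 0.0107). Without WT d8 replicate 1 it was −0.91, and without AMPK-KO d8 replicate 1 it was −2.12. Notch2 stood the other way round from d0, with 156 and 211 CPM in WT and 243 and 280.0 CPM in AMPK-KO libraries (log2 fold change 0.51, SE 0.190, edgeR adjusted p = 0.17). Notch3 had 96.6 and 122 CPM in WT and 269.6 and 217 CPM in AMPK-KO d8 libraries (log2 fold change 1.15, SE 0.529, adjusted p = 0.249). For Jag2 the values were 29.5 and 21.2 CPM in WT and 12.4 and 10.9 CPM in AMPK-KO libraries (log2 fold change −1.12, SE 0.483, adjusted p = 0.225). Hes1 had 63.6 and 46.3 CPM in WT and 43.9 and 33.2 CPM in AMPK-KO libraries (log2 fold change −0.51, adjusted p = 0.354). Hey1 overlapped between the genotypes, with 23.5 and 7.18 CPM in WT and 3.14 and 9.28 CPM in AMPK-KO libraries, as did Jag1, Heyl and Rbpj. Dll1 had 8.10 and 10.5 CPM in WT and 14.3 and 13.7 CPM in AMPK-KO libraries (log2 fold change 0.59, SE 0.344, edgeR adjusted p = 0.354). In all 6 members did not overlap at d8 beside 57.9% of all tested genes. The median over the 10 genes was −0.13, and over all tested genes it was 0.04.

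Across differentiation, from d0 to d8, Dll1 was the 1 member called in AMPK-KO cells. The background was 9.76% called and 4.81% called higher, so this count is not a result about the Notch genes. Dll1, a ligand of the Delta type, rose from 3.45 and 5.66 CPM to 14.3 and 13.7 CPM in AMPK-KO cells (3.06-fold, log2 1.62, SE 0.354, edgeR adjusted p = 0.037). This call was lost without either AMPK-KO d0 library, either AMPK-KO d8 library or either WT d8 library (adjusted p up to 0.202), and with the AMPK-KO libraries alone it was 0.0556. In WT cells Dll1 had 5.50 and 3.52 CPM at d0 and 8.10 and 10.5 CPM at d8 (log2 fold change 1.04, SE 0.352, adjusted p = 0.0968). Jag2 ran opposite to Dll1, from 44.6 and 97.7 CPM to 29.5 and 21.2 CPM in WT (log2 −1.49, SE 0.481, adjusted p = 0.0854) and from 15.9 and 36.3 CPM to 12.4 and 10.9 CPM in AMPK-KO cells (log2 −1.16, adjusted p = 0.168, and −1.66 or −0.43 without AMPK-KO d0 replicate 1 or 2). Jag1 went from 14.0 and 7.92 CPM to 30.2 and 22.3 CPM in WT cells (log2 1.26, SE 0.464, adjusted p = 0.119). These WT differences depend on the WT d0 libraries. Without replicate 1 they were 1.38 for Dll1, −1.97 for Jag2 and 1.71 for Jag1, and Jag2 was then called (edgeR adjusted p = 0.0403). Without replicate 2 they were 0.77 for Dll1, −0.80 for Jag2 and 0.92 for Jag1.

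In WT cells 0 of 10 members were called by edgeR between d8 and d0, beside a background of 12.4%. Here 4 members had an unadjusted p under 0.05, and DESeq2 called 3 (Jag1, Jag2 and Dll1). Rbpj was lower at d8 in each genotype without overlap, from 51.7 and 68.3 CPM to 35.8 and 48.3 CPM in WT (log2 −0.51, adjusted p = 0.159, and −0.72 or −0.28 without WT d0 replicate 1 or 2) and from 64.6 and 58.8 CPM to 39.2 and 33.3 CPM in AMPK-KO cells (log2 −0.77, SE 0.216, adjusted p = 0.0691, and 0.049 without WT d0 replicate 2). Heyl had 28.2 and 38.1 CPM in AMPK-KO d8 libraries against 1.47 and 15.8 CPM at d0 (log2 1.94, SE 0.947, adjusted p = 0.229, and 1.05 or 4.51 without AMPK-KO d0 replicate 1 or 2). The 2 comparisons across time and the 2 between genotypes share libraries. The test of whether the d8 against d0 change differed between AMPK-KO and WT called 0 of 14329 genes with edgeR (0% background), where 729 genes had an unadjusted p under 0.05 and DESeq2 called 60. Notch2 had the smallest p of the members in it, with a log2 difference of 0.94 (SE 0.268, edgeR adjusted p = 0.876). For Notch1 the difference was 1.33 (SE 0.669, adjusted p = 1) and ranged from 0.82 to 2.04 in fits without 1 library.

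Marker genes moved with genotype and time in these libraries. The 9 myotube markers summed to 160.2 and 104 CPM in WT d0 and to 18.4 and 12.4 CPM in AMPK-KO d0 libraries, 9 of 9 were lower and 3 were called (Myog, Mymk and Mymx). Acta1 was the most abundant of them in every d8 library. At d8 their sum was 5715 and 8787 CPM in WT and 1664 and 9982 CPM in AMPK-KO libraries. From d0 to d8 all 9 rose with a call in each genotype. The fibroblast markers Dcn and Dpt rose in each genotype and Lum in WT, with a median log2 change over 5 tested markers of 4.16 in WT and 3.36 in AMPK-KO. Of the myoblast markers 2 were called higher in AMPK-KO cells, Myod1 among them, while none was called in WT by edgeR (2 with an unadjusted p under 0.05). The neural marker Tubb3 fell in AMPK-KO cells. The 6 proliferation genes, led by Top2a, fell with a call in each genotype, with a median log2 change of −3.41 in WT and −2.65 in AMPK-KO. Their sum was 1010 and 1896 CPM in WT d0 and 1551 and 1512 CPM in AMPK-KO d0 libraries, and 156 and 149 CPM in WT d8 and 342 and 155 CPM in AMPK-KO d8 libraries. Between the genotypes 0 of the 6 were called by edgeR at either day, and 0 had an unadjusted p under 0.05. The neuronal genes Tubb3, Map2 and Gap43 were below WT with a call at each day, with 184 and 362 CPM summed over 6 neural markers in WT d0 and 12.04 and 9.68 CPM in AMPK-KO d0 libraries. Tubb3 was the most abundant of these 6, while the defining genes Rbfox3 and Sox10 were at 0 in each WT library. The 6 fibroblast markers summed to 622 and 307 CPM in WT d0 and 124 and 168 CPM in AMPK-KO d0 libraries without a call. At d8 they summed to 1372 and 2875 CPM in WT and 331 and 513 CPM in AMPK-KO libraries, with Col1a1 and Lum called lower, Dcn or Col1a1 the most abundant and Thy1 at 0 in all 8 libraries. Of the 6 myoblast markers, led by Des, Myod1 and Pax7 were called lower at d0 and Pax7 at d8. Smooth muscle and pericyte markers had no call at either day. Immune and endothelial markers summed to at most 13.1 CPM in any library. In bulk libraries fewer cells of a type and less RNA per cell cannot be told apart, and the part of these markers in the Notch1 difference and in the changes with time was not tested.

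**Figure D2:**
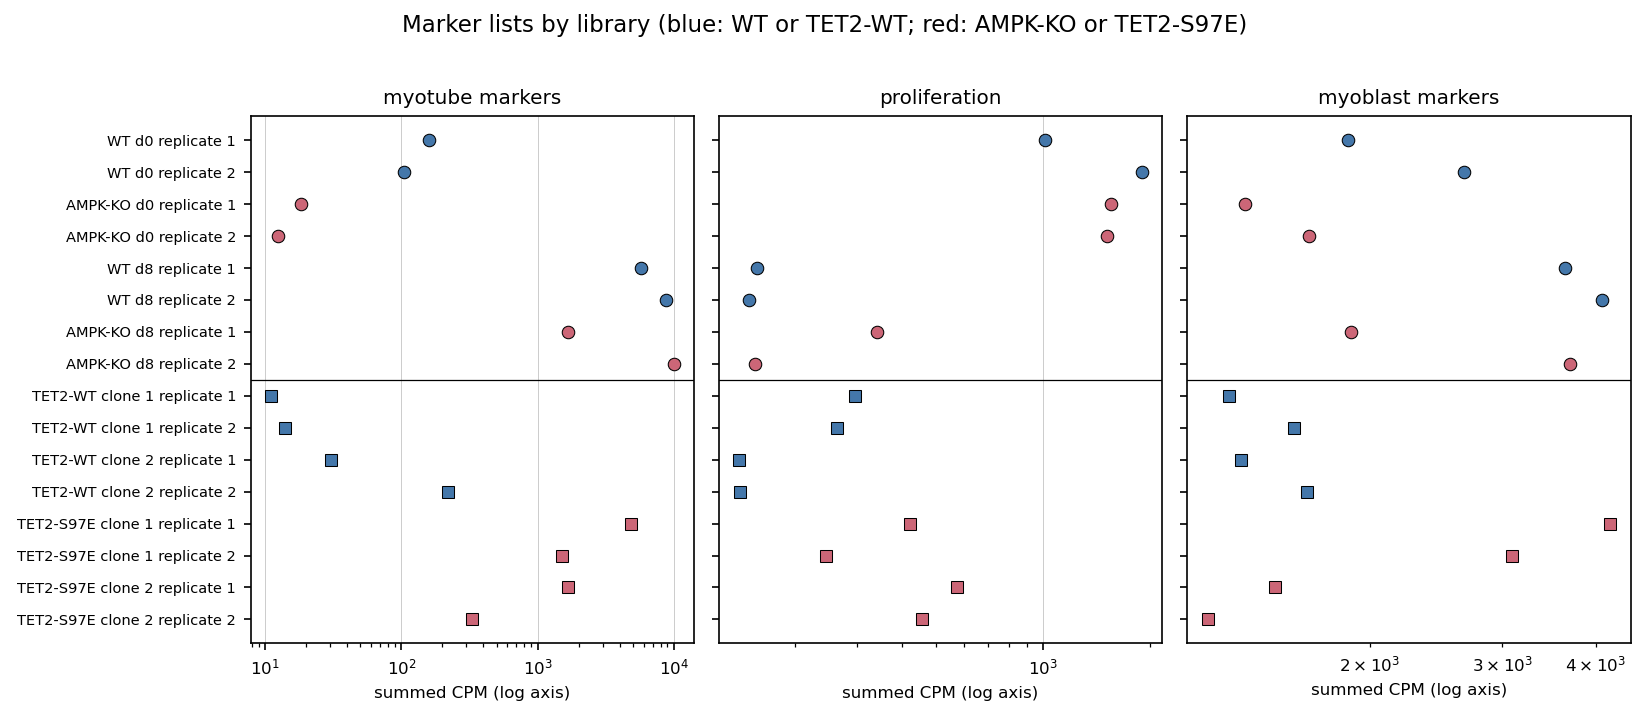
Each panel plots the summed CPM of 1 marker list on a logarithmic axis for the 16 libraries, with circles for the first table and squares for the second. The myotube markers sum to between 10.97 and 219.5 CPM in TET2-WT and between 331 and 4822 CPM in TET2-S97E libraries. The study describes the cells of all 8 as undifferentiated.

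The second table asked whether TET2-S97E changes expression in cells without AMPK. Heyl and Notch1 were higher in TET2-S97E than in TET2-WT libraries, 2 members called of 10, beside 6.98% of 13433 genes (3.71% called higher). Heyl, a HEY family repressor on mm10 chr4:123233556-123249875, had 2.00, 2.01, 1.69 and 3.73 CPM in the TET2-WT libraries of clone 1 and clone 2. In the TET2-S97E libraries it had 19.7 and 18.3 CPM in clone 1 and 7.08 and 12.1 CPM in clone 2. Every TET2-S97E library lay above every TET2-WT library, and the rise was 6.06-fold (log2 2.60, SE 0.384, edgeR adjusted p = 0.00806). The call held without each library in turn (adjusted p up to 0.0344).

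Notch1 had 4.08 and 3.63 CPM in TET2-WT clone 1 and 7.88 and 13.3 CPM in clone 2. In TET2-S97E it had 25.4 and 34.1 CPM in clone 1 and 16.2 and 34.9 CPM in clone 2, so that the genotypes again did not overlap. The rise was 3.85-fold (log2 1.94, SE 0.429, edgeR adjusted p = 0.0285). As a share of the TPM of the 3 receptors, Notch1 was between 0.510% and 1.27% in TET2-WT and between 3.11% and 4.98% in TET2-S97E libraries. The Notch1 call was lost when any 1 of 6 libraries was left out, with adjusted p from 0.0554 to 0.0797. These were both libraries of TET2-WT clone 1, replicate 1 of TET2-WT clone 2, both libraries of TET2-S97E clone 1 and replicate 2 of TET2-S97E clone 2.

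Libraries of 1 clone share that clone, so the p-values over 4 libraries a genotype are too small for a statement about genotypes. With counts summed per clone, 2 against 2, edgeR called 0 of 15126 genes, 1575 of which had an unadjusted p under 0.05, and the adjusted p was 0.277 for Heyl and 0.343 for Notch1. With the clone as a random effect in limma-voom, 166 genes were called, among them Heyl (adjusted p = 0.0393) and not Notch1 (0.065). Without TET2-WT clone 1 the adjusted p was 0.0814 for Heyl and 0.117 for Notch1, and without TET2-S97E clone 1 it was 0.023 for Heyl and 0.0842 for Notch1.

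**Figure D3:**
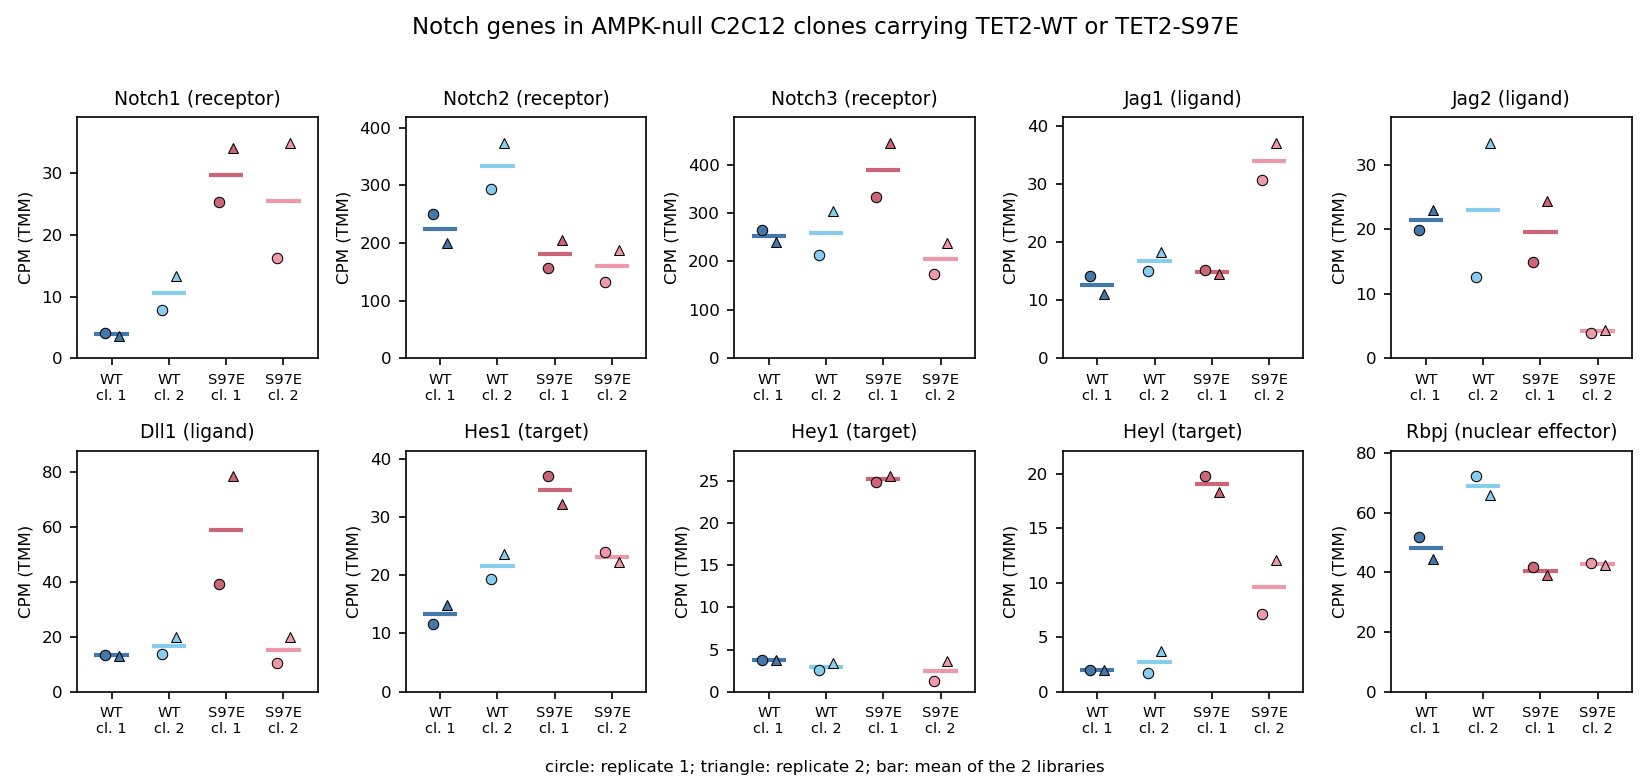
Each panel plots the CPM of 1 gene on a linear axis from 0 in the 8 libraries of AMPK-null clones, with circles for replicate 1, triangles for replicate 2 and a bar for the mean of the 2 libraries of a clone. Notch1 and Heyl are higher in both TET2-S97E clones, whereas Hey1 stands at 24.9 and 25.6 CPM in TET2-S97E clone 1 and at 1.26 and 3.58 CPM in clone 2.

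Hes1, the third target gene, had 11.7, 14.9, 19.3 and 23.7 CPM in TET2-WT and 37.0, 32.2, 23.9 and 22.3 CPM in TET2-S97E libraries. The lowest TET2-S97E library was below the highest TET2-WT library, and the difference was not called (log2 0.73, SE 0.249, edgeR adjusted p = 0.112). Notch2 had 249.8, 199, 293 and 373 CPM in TET2-WT and 157, 206, 132 and 188 CPM in TET2-S97E libraries, and the genotypes overlapped (log2 −0.70, SE 0.215, adjusted p = 0.0839). Rbpj was lower in every TET2-S97E library, at 39.0 to 43.1 CPM against 44.4 to 72.2 CPM in TET2-WT (log2 −0.49, SE 0.159, adjusted p = 0.0994). Jag2 overlapped broadly, at 3.94 to 24.3 CPM in TET2-S97E and 12.6 to 33.4 CPM in TET2-WT libraries. With Heyl and Notch1, 3 of the 10 genes had no overlap between the genotypes, beside 15.3% of all tested genes. The median over the 10 genes was 0.74 on the log2 scale and over all tested genes 0.01.

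The TET2-S97E clones differed from each other in 4 of the 10 genes, beside a background of 6.17% of 14459 genes. Hey1 had 24.9 and 25.6 CPM in clone 1 and 1.26 and 3.58 CPM in clone 2 (10.1-fold lower in clone 2, log2 −3.34, SE 0.413, edgeR adjusted p = 0.00261), a call that held without each library in turn. The log2 difference was −2.86 without replicate 1 and −4.31 without replicate 2 of clone 2. The ligands Dll1 and Jag2 were lower in clone 2 too. Dll1 had 39.2 and 78.3 CPM in clone 1 and 10.4 and 19.7 CPM in clone 2 (log2 −1.96, SE 0.382, adjusted p = 0.0181). Jag2 had 14.9 and 24.3 CPM in clone 1 and 3.94 and 4.40 CPM in clone 2 (log2 −2.23, SE 0.430, adjusted p = 0.0173). Jag1 went the other way, from 15.3 and 14.4 CPM in clone 1 to 30.7 and 37.1 CPM in clone 2 (log2 1.19, SE 0.205, adjusted p = 0.0103). The Dll1 and Jag2 calls were lost without either library of TET2-WT clone 1 or without replicate 2 of TET2-S97E clone 1 (adjusted p up to 0.0764 and 0.0665), and the Jag1 call without replicate 2 of either TET2-S97E clone (0.0599 and 0.0509). Notch3 was at 333 and 445 CPM in clone 1 and 174 and 237 CPM in clone 2 and was not called (log2 −0.92, SE 0.238, adjusted p = 0.055), but was called with the replicate number as a block (edgeR adjusted p = 0.0157). With 8 of 10 genes not overlapping between these clones the share among all tested genes was 47.6%. Marker genes of several lists moved with the clone as well. Of the 6 myoblast markers, 5 were lower in clone 2 and Myod1, Des and Cdh15 were called lower, with sums of 4182 and 3092 CPM in clone 1 and 1497 and 1217 CPM in clone 2, led by Des. Of 8 myotube markers tested, 7 were lower in clone 2 (median log2 difference −1.76) and Mymx and Myh3 were called lower. All 6 proliferation genes were higher in clone 2 without a call by edgeR (4 with an unadjusted p under 0.05), with sums of 421 and 245 CPM in clone 1 and 572 and 458 CPM in clone 2. Of 5 fibroblast markers tested, 2 were called higher and 1 was called lower in clone 2. Of 3 endothelial markers tested 1 was called lower, and of 2 neural markers tested 1 was called higher. The part of these markers in the Hey1, Dll1, Jag2 and Jag1 differences was not tested.

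These clone differences carry into the genotype comparison. Over both TET2-S97E clones Hey1 (log2 2.04, SE 0.787, edgeR adjusted p = 0.153) and Dll1 (log2 1.30, SE 0.519, adjusted p = 0.166) were not called. Without TET2-S97E clone 1 the log2 differences were −0.48 for Hey1, −0.01 for Dll1 and −0.34 for Notch3. Without TET2-S97E clone 2 Hey1 and Dll1 were called higher (adjusted p = 9.03e-04 and 0.00672). Jag1 had a log2 difference of 0.74 over both clones (adjusted p = 0.197) and of 1.20 without TET2-S97E clone 1 (adjusted p = 0.0208). The TET2-WT clones differed in 0 of 10 genes by edgeR, beside a background of 0.858%, where 4 members had an unadjusted p under 0.05 and DESeq2 called 2 (Notch1 and Hes1). Notch1 was the nearest to a call between them, at 2.76-fold higher in clone 2 (log2 1.46, SE 0.387, adjusted p = 0.115), and was called with the replicate number as a block (edgeR adjusted p = 0.0347). Markers moved between the TET2-WT clones too. All 8 myotube markers tested were higher in clone 2 without a call by edgeR (6 with an unadjusted p under 0.05, median log2 difference 2.78). All 5 fibroblast markers tested were higher, with Col1a1 and Lum called and sums of 283 and 274 CPM in clone 1 and 699 and 888 CPM in clone 2. Of the smooth muscle and pericyte markers 4 of 4 tested were higher and Rgs5 was called, and of the myoblast markers Myod1 was called higher. All 6 proliferation genes were lower in clone 2 and Cdk1 was called. The part of these markers in the Notch1 difference between the clones was not tested.

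**Figure D4:**
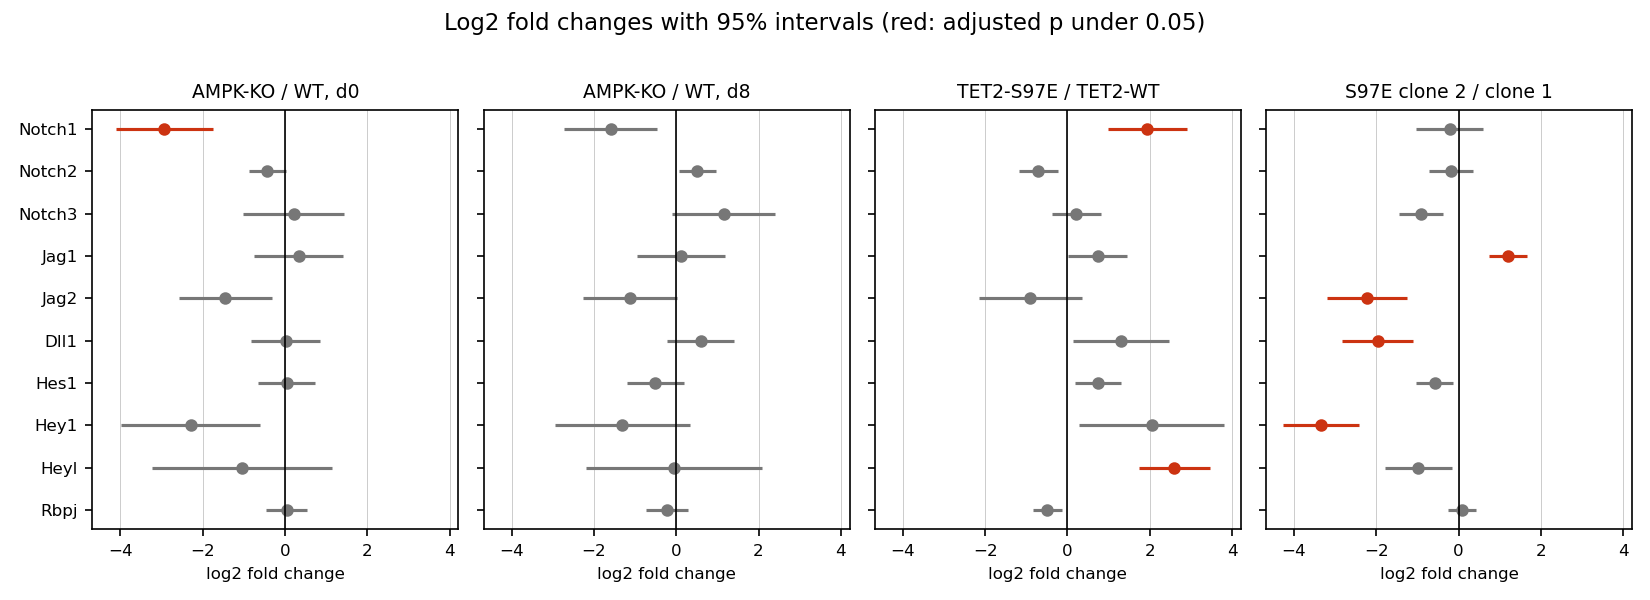
Points give the log2 fold change of each gene and lines its 95% interval in 4 comparisons, with genes called by edgeR (adjusted p under 0.05) in red. At d0 Notch1 lies at −2.93 for AMPK-KO relative to WT, while it lies at 1.94 for TET2-S97E relative to TET2-WT, and Hey1 at −3.34 between the TET2-S97E clones.

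Differentiation markers moved with TET2 genotype in the same libraries. Of 9 myotube markers 8 were tested between TET2-S97E and TET2-WT, all 8 were higher and 7 were called. None of these calls held with counts summed per clone, where 9 of 9 tested had an unadjusted p under 0.05 by edgeR. With the clone as a random effect in limma-voom Myog alone was called (adjusted p = 0.0382), beside 0.0579 for Acta1 and 0.065 for Mymk. Their sum was 10.97, 14.0, 30.2 and 219.5 CPM in TET2-WT and 4822, 1522, 1680 and 331 CPM in TET2-S97E libraries, with Acta1 the most abundant in each TET2-S97E library. Myh4 was at 0 in every TET2-WT library. Myog, the myogenin gene, had 0.408 to 13.8 CPM in TET2-WT and 42.0 to 179 CPM in TET2-S97E libraries. Myod1, which HES and HEY proteins are known to oppose, had 147 and 144 CPM in TET2-S97E clone 1 and 27.6 and 29.1 CPM in clone 2. The 6 smooth muscle and pericyte markers, led by Acta2, summed to 715 to 1137 CPM in TET2-WT and 1453 to 2729 CPM in TET2-S97E libraries without overlap. Acta2 was called higher and Rgs5 lower, while Myh11, which defines smooth muscle, was at most 0.809 CPM in the 8 libraries. The endothelial gene Tek was called lower, at 1.38 to 6.12 CPM in TET2-WT and 0.875 to 1.31 CPM in TET2-S97E libraries. Of the 6 myoblast markers Myod1 and Pax7 were called higher, and no fibroblast marker was called. The Myod1 call (edgeR adjusted p = 0.0496) was lost with counts summed per clone (0.424) and with the clone as a random effect in limma-voom (0.14), as was that of Pax7 (0.277 and 0.0698). The 6 proliferation genes summed to 139.6 to 297 CPM in TET2-WT and 245 to 572 CPM in TET2-S97E libraries. All 6 were higher in TET2-S97E, with a median log2 difference of 1.02, and Mki67 was called. In the first table, which was scaled separately, the same sum was 1010 to 1896 CPM in d0 and 149 to 342 CPM in d8 libraries. With the clone as a random effect Acta2, Rgs5 and Mki67 were called and Tek was not, and with counts summed per clone none of these 4 was called. The part of these markers in the Notch1 and Heyl differences was not tested.

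Around the 10 genes, 59 further pathway genes were listed by role and 47 of them were tested in each comparison. Between AMPK-KO and WT 1 was called at d0 and 2 at d8, all lower, beside 3.52% and 5.35% of all tested genes. These counts are near the background and are not a result about the pathway genes. Neurl1a, which encodes an E3 ligase for Notch ligands, had 67.7 and 83.0 CPM in WT d0 and 16.2 and 15.3 CPM in AMPK-KO d0 libraries (4.78-fold lower, edgeR adjusted p = 0.019). At d8 it had 216 and 277 CPM in WT and 40.7 and 83.2 CPM in AMPK-KO libraries (3.98-fold lower, adjusted p = 0.0219). The ligases Neurl1b (17.3 and 7.86 CPM against 1.78 and 1.496 CPM at d0, adjusted p = 0.0884) and Mib1 (182 and 192 CPM against 128 and 116 CPM, adjusted p = 0.0617) were below WT at d0 without a call. Fbxw7, which marks the cut receptor for destruction, had 79.2 and 88.5 CPM in WT d8 and 42.3 and 36.9 CPM in AMPK-KO d8 libraries (2.12-fold lower, adjusted p = 0.0235). The Neurl1a call at d0 was lost without WT d0 replicate 2 or either AMPK-KO d0 library (adjusted p up to 0.142). At d8 it was lost without either WT d8 library (up to 0.117), and the Fbxw7 call without any 1 of the 4 d8 libraries (up to 0.159). The log2 difference of Neurl1a at d8 ranged from −2.63 to −1.55 in fits without 1 library. The median log2 difference of the 47 genes was −0.08 at d0 and −0.04 at d8.

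Across differentiation 7 of the 47 were called in WT cells and 4 in AMPK-KO cells, beside 12.4% and 9.76% of all tested genes, so these counts are not a result about the pathway genes. Mib2, Neurl1a, Dtx3 and Hes6 were called higher at d8 in both. Hes6, a HES family member known to favour myogenic differentiation, had 38.2 and 43.0 CPM in WT d0 and 117.5 and 89.8 CPM in WT d8 libraries. Psen2, a subunit of the γ-secretase that makes the last receptor cut, and Fbxw7 were called higher in WT cells, and Gxylt1, a xylosyltransferase of the receptors, was called lower.

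In TET2-S97E against TET2-WT 4 of the 47 were called, beside 6.98% of all tested genes, so this count is not a result about the pathway genes. Neurl1b had 0.870 to 2.27 CPM in TET2-WT and 3.84 to 6.55 CPM in TET2-S97E libraries (3.41-fold higher, edgeR adjusted p = 0.0235). The γ-secretase subunit gene Aph1a was lower (78.4 to 104.7 CPM in TET2-WT and 54.1 to 71.1 CPM in TET2-S97E libraries, adjusted p = 0.0271) and its relative Aph1b was higher (15.1 to 20.1 CPM against 24.8 to 31.0 CPM, adjusted p = 0.0235). Notch4, the fourth receptor, was scarce, at 1.145 to 3.34 CPM in TET2-WT and 0.504 to 1.075 CPM in TET2-S97E libraries (adjusted p = 0.0499). Each of these calls was lost in some fits without 1 library, held for Neurl1b in 6 of 8 such fits, for Aph1a and Aph1b in 3 and for Notch4 in 2. None of these 4 calls held with counts summed per clone, and none held with the clone as a random effect. Between the TET2-S97E clones Neurl1a (5.74-fold lower in clone 2, adjusted p = 0.00281) and Hes6 (2.87-fold lower, adjusted p = 0.00811) were called lower, and Lfng and Maml2 were called higher.

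Of 6 genes listed as Notch targets of muscle stem cells, Calcr was not tested and Pax7, the satellite cell transcription factor, was called in each genotype comparison. Pax7 had 167, 169, 138 and 177 counts in the WT libraries and 0, 1, 0 and 2 counts in the AMPK-KO libraries, and the d0 call was lost without AMPK-KO d0 replicate 1 (edgeR adjusted p = 0.0727) or replicate 2 (0.0572). In the second table it had 1, 6, 1 and 2 counts in TET2-WT and 42, 51, 50 and 323 counts in TET2-S97E libraries, where the call was lost with counts summed per clone (edgeR adjusted p = 0.277) and with the clone as a random effect in limma-voom (0.0698). The collagen genes Col5a1, Col5a3, Col6a1 and Col6a2 were not called in these comparisons. Between the TET2-S97E clones, however, Col5a1, Col6a1 and Col6a2 were called higher in clone 2, where Hey1, Dll1 and Jag2 were lower and Jag1 was higher. Of the 5 fibroblast markers tested between these clones, 2 were higher (Dcn and Lum, both called) and 3 lower (Dpt called) in clone 2. Their sum, led by Dcn in each library, was 476 and 386 CPM in clone 1 and 1333 and 742 CPM in clone 2. Their part in the collagen differences was not tested.

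Genes whose log2 CPM followed Notch1 most closely over the 8 libraries of the first table were Mtmr9 (Pearson r = 0.987), Rock1 (0.981) and Gpsm1 (0.970). Over the 8 libraries of the second table they were Zhx2 (0.988), Map1a (0.981) and Itsn1 (0.978), and for Heyl they were Zfp419 (0.992), Gm7696 (0.984) and Hnrnpa2b1 (0.984). These values describe 8 libraries in 4 groups and share group, depth and scaling. No gene was among the 3 nearest to Notch1 in both tables.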

How the data were processed

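RNA-seq read counts per gene were deposited by the authors as 2 tables of raw, unnormalized counts. Per the labels and the study's methods, reads were trimmed with Trim Galore 0.4.5, aligned to mm10 with STAR 2.5.3a and counted with featureCounts 1.5.3 on GENCODE genes; the strand setting was not given in the sources used here, so reads of Notch1, Notch3, Dll1 and Rbpj cannot be told apart from those of antisense genes that overlap them. Names and exon lengths came from GENCODE M21, which held 49326 of 49585 gene IDs. Each table was fitted alone with edgeR 4.0.16 (R 4.3.3; TMM, filterByExpr, quasi-likelihood test), with Benjamini-Hochberg adjustment over all tested genes; DESeq2 1.42.0 and limma 3.58.1 served as alternatives. The fit was tested on simulated data, whose outcome is not reported here. Same-numbered replicates of the first table deviated together (correlations 0.119 to 0.324 over genes), so the number was also used as a block; it changed no call among the 10 genes there. In the second table they did not all do so (−0.021 to 0.506).

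Text named the 10 genes, pathway genes called between genotypes with up to 2 others per list, and the 3 genes most like each member called between genotypes (Notch1 and Heyl). Other pathway genes called across time or between clones were named after their values were seen. The 10 genes were taken by name, but members and lists were chosen with earlier results of these data known. Precision was limited by 2 libraries a group, whose counts differed by more than sampling noise. The values of 1 marker gene are not reported here.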

Additional observations from a re-analysis of the deposited data

Results flagged for a closer look

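In the 4 TET2-WT libraries the highest Dll1 value, 19.9 CPM in replicate 2 of clone 2, stood apart from the other values of 13.1 to 13.7 CPM, with a gap of 0.920 of the whole range. The highest Heyl value in the same group was in the same library, 3.73 CPM against 1.69 to 2.01 CPM, with a gap of 0.844 of the range. That library also had the highest sum of myotube markers in its group, 219.5 CPM. These were 2 of 20 groups of 4 libraries examined, and chance gives about 1 in 20.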

How the results depend on the processing

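Results were recomputed with DESeq2, without or with a stricter filter on low counts, with fewer groups in the fit, with the replicate block, per clone, and without each library. DESeq2 called 1393 of all genes at d0 and 1656 at d8 between AMPK-KO and WT, 2762 and 2532 across differentiation in WT and AMPK-KO, 60 for the difference of these changes, 1825 for TET2-S97E against TET2-WT, and 894 and 1383 between the TET2-WT and TET2-S97E clones. Of the 10 members DESeq2 called 3, 1, 3, 2, 0, 5 and 2 in the first 7 of these. Without a filter edgeR called 2026, 2503, 3293, 3039 and 449 genes in the first 5 and 1627 and 1680 between clones, and 4, 4, 4, 5 and 1 members in the first 5 and 2 between the TET2-WT clones. With at least 10 counts in every library 204 and 277 genes were called at d0 and d8. With only the libraries of that day 335 genes were called at d0, and with only AMPK-KO libraries 788 genes and 0 members across differentiation. For TET2-S97E against TET2-WT, sums per clone gave 0 genes and 0 members, the clone as a random effect 166 and 1, leaving out TET2-WT clone 1 183 and 1, leaving out TET2-WT clone 2 625 genes, and leaving out TET2-S97E clone 2 4 members. The 1 member called without TET2-WT clone 1 was neither Heyl nor Notch1. The cause of these differences was not tested.

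The replicate block changed no member call in the first table. In the second, the labels do not say what a replicate number marks, same-numbered libraries did not all deviate together, and every replicate 1 library (up to 21456971 counted reads) was shallower than every replicate 2 library (at least 27394406), so the number and the depth cannot be told apart. There the block gave 858 genes for TET2-S97E against TET2-WT, 677 genes and 1 member between TET2-WT clones (Notch1, adjusted p = 0.0347 from edgeR) and 1540 genes between TET2-S97E clones, with Notch3 then called (0.0157). The Notch4 call between the genotypes was lost (0.0545).

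Leaving out each library in turn, all genes called ranged from 17 to 613 at d0, 107 to 902 at d8, 0 to 2260 across differentiation in WT, 0 to 1737 in AMPK-KO, 0 to 6 for the difference of these, 304 to 1092 for TET2-S97E, 0 to 313 between TET2-WT clones and 472 to 1014 between TET2-S97E clones. Members called ranged from 0 to 1, 0 to 0, 0 to 1, 0 to 2, 0 to 0, 1 to 3, 0 to 1 and 1 to 5 in the same order. Some uncalled members changed sign, given here for the comparisons between genotypes. Between AMPK-KO and WT at d0, log2 differences ranged from −0.41 to 1.31 for Notch3, −0.29 to 0.47 for Hes1 and −0.15 to 0.26 for Rbpj, and differences without WT d0 replicate 1 were −0.41 for Notch3, −0.29 for Hes1 and −0.15 for Rbpj, without AMPK-KO d0 replicate 2 −0.29 for Notch3 and −0.13 for Hes1, and without AMPK-KO d0 replicate 1 −0.04 for Rbpj. Jag1 (−0.015 to 0.80) and Dll1 (−0.41 to 0.36) also changed sign at d0. At d8 Rbpj ranged from −0.39 to 0.033, the latter without WT d8 replicate 2. Jag1 ranged from −0.68 to 0.58 and Heyl from −0.40 to 0.45 at d8. For TET2-S97E, Notch3 ranged from −0.044 to 0.39 and was at −0.044 without replicate 2 of TET2-S97E clone 1, and without that clone Notch3 was at −0.34, Dll1 at −0.015 and Hey1 at −0.48. What read depth adds to these limits was not tested.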
